A study of Rattus norvegicus with 23 samples.

Results

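The miR-322, miR-503, miR-351, miR-450a and miR-542 cluster was followed in rat PC12 cells. The cluster was picked with earlier results of these data known, so comparisons of its members with other entries are not independent of those results. Its members were chosen by name: every entry of the deposited sRNAbench count table named for 1 of these 5 hairpins, whatever the arm. This gave 10 of the 413 named entries, of which 8 had enough counts to be tested among 269 tested entries. The other 2 were the 3p arms of miR-351, with 10 counts in 5 of the 23 libraries, and of miR-450a, with 22 counts in 8 libraries.

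PC12 is a line derived from a rat pheochromocytoma, a tumour of adrenal chromaffin cells, that can be pushed towards a neuron-like state with nerve growth factor. The study compared cells stably transfected with pcDNA3 carrying α1ACT, a transcription factor encoded by the calcium channel gene CACNA1A, with cells stably carrying empty pcDNA3. The construct held 11 glutamine repeats and a C-terminal 3xFlag tag. All cells of both lines had been through selection with G418, and how many clones stand behind a line is not stated in the labels. Small RNA was sequenced after the cells had been split for 6 h, 24 h, 3 d or 10 d. The vector line had 2 libraries at 6 h, and each other group had 3. Nothing in the labels calls the replicates separate cultures. The p-values therefore rest on the spread between these particular libraries, and that spread may be technical. In bulk RNA, fewer cells of a type and less RNA per cell cannot be told apart.

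A microRNA hairpin is cut into a duplex of a 5p and a 3p strand, and the retained strand guides Argonaute to messenger RNAs that pair with its seed, bases 2 to 8. Clustered hairpins can be cut from a single primary transcript, after which each mature strand has its own processing, loading and decay. miR-322 is the rodent counterpart of human miR-424. With miR-503 it belongs to the extended miR-15/16 family, known for repressing cyclins and other G1 regulators and for rising when myoblasts and other cells leave the cell cycle. miR-351 carries the seed of miR-125, and miR-542-3p is known for repressing survivin, an inhibitor of apoptosis.

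The mature sequences, from RefSeq with build GRCr8, show which members could share targets, and capitals mark the seed. All 10 members matched an entry there. The 5p strands of miR-322 and miR-503 have seeds that are alike but not the same. The abundant miR-16-5p is printed beside them because its 7 seed bases are those of miR-322-5p.
miR-322-5p: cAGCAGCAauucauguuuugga
miR-503-5p: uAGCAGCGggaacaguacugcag
miR-16-5p: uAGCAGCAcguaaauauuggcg
The leading member, miR-351-5p, has the seed of miR-125b-5p, and outside the seed the sequences differ.
miR-351-5p: uCCCUGAGgagcccuuugagccuga
miR-125b-5p: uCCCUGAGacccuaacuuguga
The 5p strand of miR-450a and that of its neighbour miR-450b, which is outside the naming rule, are nearly the same.
miR-450a-5p: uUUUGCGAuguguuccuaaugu
miR-450b-5p: uUUUGCGAuguguuccuaaua
The other 4 tested members share their seeds with no further entry counted here.
miR-322-3p: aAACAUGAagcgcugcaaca
miR-503-3p: gGAGUAUUguuuccgcugccugg
miR-542-3p: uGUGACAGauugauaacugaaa
miR-542-5p: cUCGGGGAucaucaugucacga

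In the RefSeq gene table the hairpins lie on the minus strand of chromosome X, in the order Mir322, Mir503, Mir351, Mir542, Mir450b-1 and Mir450a1 in the direction of transcription, and no other gene of that table lies between the first and the last. No source used here names the build behind the counts, so no coordinates are printed.

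Library totals ran from 448557 counts (vector, 3 d, replicate 1) to 5070120. The authors' other table, made with Chimira, served to check the library names: 21 libraries matched their own name in it, while replicate 2 of the vector line at 6 h matched replicate 2 at 10 d there, and the reverse. Which table has the right names is not known, so the calls in the vector line that compare 6 h or 10 d are given also with these 2 columns exchanged and without them. Without them the vector line keeps 1 library at 6 h, whose spread the fit takes from the other groups, and means of this line at 6 h or 10 d are as named unless stated. The neuroendocrine markers listed for PC12 summed to between 147029 and 221861 CPM (counts in a library scaled to a common total) in every library. The sum was led by miR-375-3p, miR-182 and miR-183-5p, with medians of 142473, 30979 and 3881 CPM. Others of the list were scarce, with medians of 33.6 CPM for miR-9a-5p, 5.86 CPM for miR-7a-5p and 0 for miR-7b and miR-124-3p. Mesenchymal and muscle markers summed to between 303 and 1322 CPM, nearly all of it miR-143-3p, with medians of 0 for miR-145-5p and miR-133a-3p. Blood and serum markers summed to between 0 and 11.5 CPM, with medians of 0 for miR-451-5p and miR-223-3p. The listed miR-486 and miR-122 had no entry, nor did miR-214, miR-1, miR-133b and miR-206 of the mesenchymal and muscle list.

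All levels below are CPM with TMM factors (trimmed mean of M values), a scale for comparing libraries, and a call is an edgeR quasi-likelihood p under 0.05 after Benjamini-Hochberg adjustment over all 269 tested entries. The members spanned a wide range of levels. Over all libraries rno-miR-351-5p had a mean of 3824 CPM and ranked 38 of 413, followed by rno-miR-322-5p with 1156 CPM, rno-miR-450a-5p with 371 CPM, miR-322-3p with 296 CPM and miR-542-3p with 116 CPM. The lowest tested members were miR-542-5p with 27.6 CPM, rno-miR-503-3p with 24.1 CPM and miR-503-5p with 5.53 CPM. The neighbour miR-450b-5p had a mean of 74.0 CPM, and no count was assigned to miR-450b-3p. Together the entries of the cluster made up 0.420% to 0.779% of a library. Counts of mature strands from hairpins that lie side by side thus differed widely, with miR-351-5p far above miR-503-5p in every library. The hairpins themselves were not measured, and how evenly the libraries capture different strands was not tested.

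The strand with more counts differed between hairpins. For miR-322 the 3p strand was the minor one, with a mean of 20.5% ± 2.91 (SD, n = 23) of the hairpin's counts. For miR-503 the 3p strand was the major one, with 81.2% ± 8.61 (SD, n = 23). miR-542 was likewise counted mainly as 3p, with 80.5% ± 3.98 (SD, n = 23). The 3p strands of miR-351 and miR-450a had no more than 2 and 6 counts in any library.

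**Figure D1:**
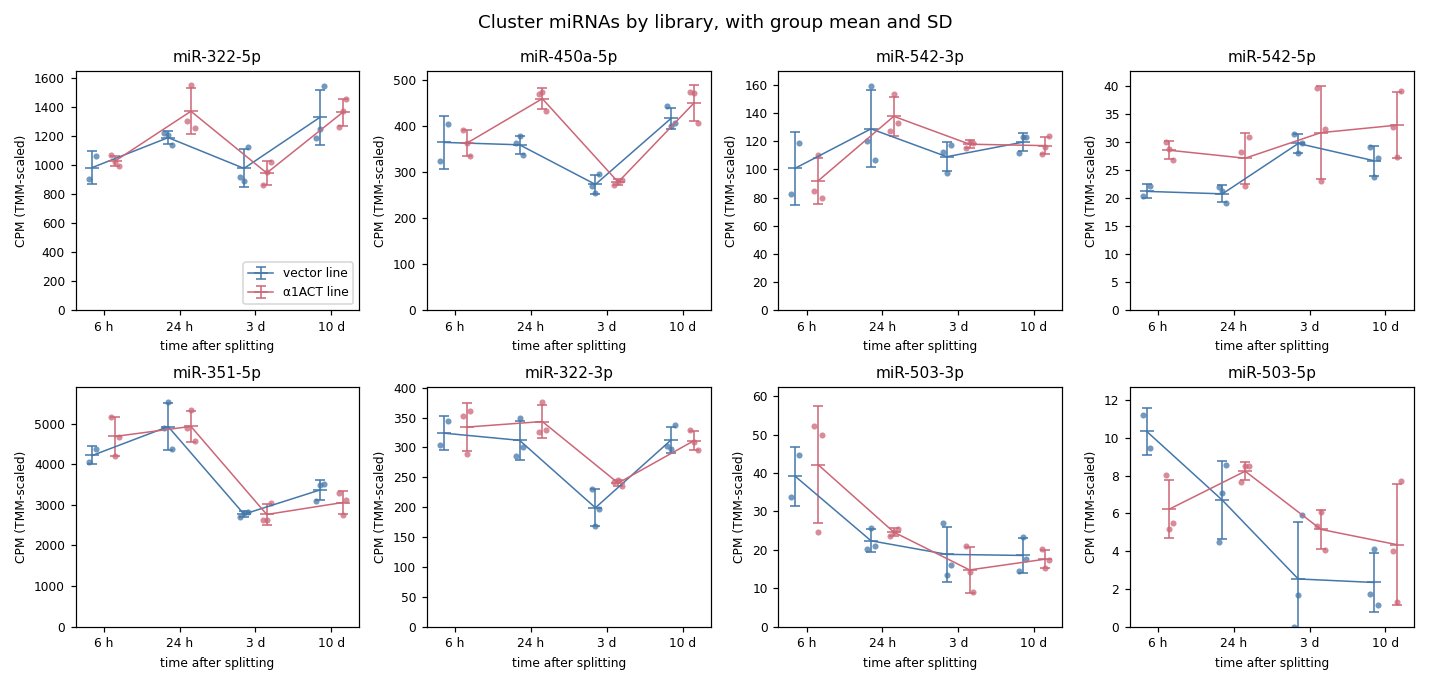
TMM-scaled CPM (y axes, each starting at 0) of the 8 tested members against time after splitting, with points for libraries and bars for group mean and SD, in the vector line (blue; n = 2 at 6 h, otherwise 3) and the α1ACT line (red; n = 3). miR-351-5p has its highest group means at 24 h (4928 and 4934 CPM) and its lowest at 3 d (2771 and 2764 CPM), while miR-503-3p has its highest at 6 h (39.1 and 42.2 CPM).

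The α1ACT line was compared with the vector line over the mean of the 4 times, and no member was called. For all tested entries 34 of 269 were called, a background of 12.6%. Of the 8 members 7 had a positive fitted difference, with a median log2 fold change of 0.09 against 0.001 over all tested entries. An unadjusted edgeR p under 0.05 was found for 2 of the 8 members and for 77 of all 269 tested entries. Of the 2 tested mesenchymal and muscle markers, miR-143-3p was lower in the α1ACT line (log2 fold change -0.76, edgeR adjusted p 0.000139). Of the 9 tested neuroendocrine markers 1 was called higher (background 12.6%), at a list median of -0.09, and at 10 d alone 1 was called higher (background 1.49%). The 1 tested blood and serum marker was not called. The part of these markers in the members' values was not tested. The abundant strands lay close together in the lines: miR-351-5p had 3785 ± 935 CPM (SD, n = 11) in the vector line and 3860 ± 1047 (SD, n = 12) in the α1ACT line, and miR-322-5p had 1133 ± 191 and 1177 ± 219 CPM. Their log2 fold changes were 0.002 (SE 0.055) and 0.06 (SE 0.060).

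The largest difference between the lines relative to its error was that of miR-542-5p, a minor strand. It had 24.9 ± 4.29 CPM (SD, n = 11) in the vector line and 30.1 ± 5.39 (SD, n = 12) in the α1ACT line. At 6 h its 2 vector libraries had 20.3 and 22.1 CPM and its 3 α1ACT libraries 29.9, 28.8 and 26.8 CPM. At 24 h the vector libraries had 22.0, 21.2 and 19.1 CPM and the α1ACT libraries 28.2, 22.1 and 30.9 CPM. At 3 d and 10 d the libraries of the lines overlapped, at 28.0 to 31.4 against 22.97 to 39.6 CPM and at 23.7 to 29.1 against 27.3 to 39.0 CPM. The log2 fold change was 0.30 (SE 0.108), with an edgeR adjusted p of 0.0636. It was called in 6 of 35 alternatives, among them those without replicate 2 of the α1ACT line at 24 h (adjusted p 0.0286), at 3 d (0.0261) or at 10 d (0.0380). With the columns exchanged the adjusted p was 0.115 and without both libraries 0.173, at log2 fold changes of 0.29 and 0.30.

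miR-450a-5p and miR-322-3p showed smaller differences, with log2 fold changes of 0.12 (SE 0.055, edgeR adjusted p 0.146) and 0.12 (SE 0.062, adjusted p 0.201). With upper-quartile scaling or library totals, which raised the median of all entries by 0.09 and 0.07, both were called together with miR-542-5p. Relative to that median, the difference of miR-542-5p was between 0.30 and 0.31 under these scalings. Fitted differences of miR-503-5p (0.26, SE 0.269), miR-542-3p (0.01, SE 0.080) and miR-503-3p (-0.006, SE 0.147) were within their errors.

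At single times no member was called between the lines, against a background of 0% for 6 h, 0.372% for 24 h and likewise for 3 d, and 1.49% for 10 d. DESeq2 and limma-voom called no member. Members with an unadjusted edgeR p under 0.05 numbered 0, 1, 1 and 0 of 8, against 30, 28, 24 and 40 of all 269 tested entries. The member at 24 h was miR-450a-5p. Its vector libraries had 362, 377 and 338 CPM and its α1ACT libraries 469, 474 and 433 CPM. The log2 fold change was 0.35 (SE 0.106), with an edgeR adjusted p of 0.165, and it was called with upper-quartile factors (0.0344) and library totals (0.0268). At 3 d it was miR-322-3p, with 231, 168 and 198 CPM in the vector line and 241, 245 and 235 CPM in the α1ACT line (log2 fold change 0.30, SE 0.125, edgeR adjusted p 0.369). The interaction of line and time was called for none of the 269 entries (a background of 0%, 10 entries at an unadjusted p under 0.05), and the smallest unadjusted edgeR p of a member was 0.105, for miR-450a-5p.

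Levels of the cluster moved with time in each line. In the α1ACT line, which does not hold the 2 libraries with conflicting names, 6 of 8 members were called for a change over the 4 times, against a background of 42.4%. These were miR-351-5p (edgeR adjusted p 2.58e-07), miR-450a-5p (1.00e-05), miR-503-3p (0.000437), miR-322-5p (0.000449), miR-322-3p (0.00398) and miR-542-3p (0.0254). The first 5 were called in all 35 alternatives and miR-542-3p in 31. It lost the call in the Chimira table and without α1ACT 6 h replicate 1, 6 h replicate 3 or 24 h replicate 2, with adjusted p up to 0.147. The vector line also had 6 of 8 called, against a background of 36.8%: miR-351-5p (5.71e-06), miR-322-3p (0.000167), miR-450a-5p (0.000846), miR-322-5p (0.00902), miR-503-3p (0.0114) and miR-503-5p (0.0132). Over the alternatives, the count of all entries called for time in this line lay between 46 and 120, against 99 as reported. The 36.8% is therefore not the background of the alternatives that follow, and calls there are not shown to exceed their own background. With the 2 columns exchanged, miR-322-3p, miR-351-5p and miR-450a-5p were called (adjusted p 0.00141, 0.00108 and 0.00513), and without both libraries all of the 6 but miR-503-3p (0.0821). miR-503-3p was also lost without vector 6 h replicate 2 alone (0.153), and miR-503-5p without vector 6 h replicate 1 (0.0510) or vector 10 d replicate 3 (0.0507).

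The α1ACT line changed from 6 h to 10 d in opposite directions within the cluster. Of the 8 members 4 were called, against a background of 27.1% (11.2% higher and 16% lower). miR-351-5p and miR-503-3p were lower at 10 d, and miR-322-5p and miR-450a-5p were higher. By values alone, miR-322-5p, miR-450a-5p and miR-542-3p had every 10 d library above every 6 h library (3 of 8, background 21.9%), and miR-351-5p and miR-503-3p had every one below (2 of 8, background 20.1%). The summed mesenchymal and muscle markers also were lower at 10 d, at 303 to 361 CPM against 467 to 710 CPM at 6 h. Of these 6 entries 2 were tested, and miR-143-3p was called (log2 fold change -0.75, edgeR adjusted p 0.0153). The neuroendocrine sum was higher at 10 d, at 173944 to 182018 CPM against 159878 to 171951 CPM, and of its 9 tested entries miR-96-5p (-0.97) and miR-375-5p (-2.46) were called lower. The strand miR-375-5p was scarce, at 0 to 8.45 CPM over all libraries (median 2.95 CPM), so its change rests on few counts. The blood and serum sum was 6.51 to 11.5 CPM at 10 d against 2.19 to 6.32 CPM at 6 h. The part of these markers in the result was not tested.

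For miR-351-5p, the strand with the miR-125 seed, the α1ACT libraries had 5164, 4214 and 4679 CPM at 6 h and 3290, 2756 and 3127 CPM at 10 d. Every library at 10 d was below every library at 6 h. The log2 fold change was -0.62 (SE 0.106), with an edgeR adjusted p of 6.64e-05. For miR-503-3p, the major strand of miR-503, the libraries had 52.3, 24.5 and 49.8 CPM at 6 h and 20.1, 15.3 and 17.3 CPM at 10 d. Replicate 2 at 6 h stood lower than the other two, yet above all of the 10 d libraries. The log2 fold change was -1.25 (SE 0.281), with an edgeR adjusted p of 0.00156. Both calls were kept in all 36 alternatives.

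For miR-322-5p, the strand with the miR-15/16 seed, the α1ACT libraries had 1067, 1023 and 996 CPM at 6 h and 1265, 1371 and 1453 CPM at 10 d, with no overlap. The log2 fold change was 0.41 (SE 0.116), with an edgeR adjusted p of 0.0102, and the call was lost only without α1ACT 6 h replicate 3 (adjusted p 0.0734) among 36 alternatives. For miR-450a-5p the libraries had 391, 362 and 334 CPM at 6 h and 473, 470.5 and 406 CPM at 10 d, again with no overlap. The log2 fold change was 0.31 (SE 0.106), with an edgeR adjusted p of 0.0288. This call was less stable and was lost in 8 of 36 alternatives, among them those without α1ACT 6 h replicate 3 (0.227), 10 d replicate 1 (0.0945) or 10 d replicate 2 (0.0869).

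The remaining 4 members were not called in this comparison. miR-542-3p had 84.7, 110.4 and 79.9 CPM at 6 h and 111, 116 and 123 CPM at 10 d, with a log2 fold change of 0.35 (SE 0.155, edgeR adjusted p 0.101). That comparison was called without α1ACT 6 h replicate 2 (adjusted p 0.0269). Log2 fold changes were 0.20 (SE 0.205) for miR-542-5p, -0.10 (SE 0.119) for miR-322-3p and -0.60 (SE 0.520) for miR-503-5p. The strands of miR-322 therefore stood on different sides of 0, and of these only miR-322-5p was called.

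**Figure D2:**
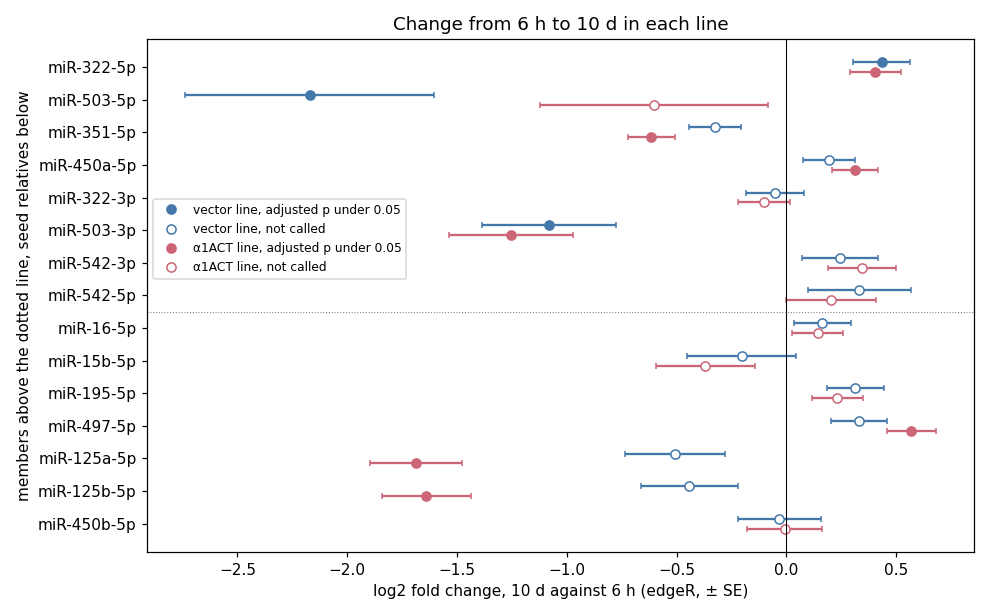
Log2 fold change from 6 h to 10 d (x axis, with edgeR standard errors) of the 8 tested members above the dotted line and of 7 entries with a member's seed below it, in the vector line (blue) and the α1ACT line (red), with filled symbols for calls. In the α1ACT line miR-351-5p (-0.62) and miR-503-3p (-1.25) lie below 0 and miR-322-5p (0.41) and miR-450a-5p (0.31) above it.

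In the vector line 3 of 8 members were called from 6 h to 10 d, against a background of 11.9% (5.2% higher and 6.69% lower), and none of these calls was kept when the libraries with conflicting names were exchanged. miR-322-5p had 903 and 1065 CPM at 6 h and 1189, 1251 and 1547 CPM at 10 d, with a log2 fold change of 0.43 (SE 0.131, edgeR adjusted p 0.0266). miR-503-3p had 33.7 and 44.6 CPM at 6 h and 14.5, 23.4 and 17.7 CPM at 10 d (-1.08, SE 0.306, adjusted p 0.0183). miR-503-5p had 11.2 and 9.46 CPM at 6 h and 1.76, 4.13 and 1.14 CPM at 10 d (-2.17, SE 0.568, adjusted p 0.00955).

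As named in the sRNAbench table, miR-322-5p and miR-542-5p had all 10 d libraries above those at 6 h (2 of 8, background 24.2%), and miR-351-5p, miR-503-3p and miR-503-5p had all below (3 of 8, background 20.8%). With the columns exchanged only miR-450a-5p was higher in this sense (1 of 8, 7.06% of all tested entries) and none lower, and without both libraries, with 1 library left at 6 h, 4 were higher (43.5%) and 3 lower (35.3%). With the columns exchanged no member was called (edgeR adjusted p 0.993 for each). The Chimira table as named, which holds these 2 libraries the other way round, likewise gave none (0.996). With its columns exchanged, Chimira gave calls for miR-322-5p (0.0214), miR-503-3p (0.00468) and miR-503-5p (0.0152). Among the alternatives the count of all entries called in this comparison also went as low as 0, against 32 as reported. Without both libraries, when 6 h is a single library assumed to vary like the other groups, miR-503-5p was called (adjusted p 0.0134). miR-322-5p and miR-503-3p then had 0.140 and 0.110, at log2 fold changes of 0.47 and -1.19. Leaving out vector 6 h replicate 1 or vector 6 h replicate 2 left 1 member called, and leaving out vector 10 d replicate 3 left none. The call of miR-322-5p was also lost with library totals (0.0830), without α1ACT 6 h replicate 3 (0.0501), which enters the shared fit, and with the 2 groups fitted alone (0.125), and that of miR-503-3p without vector 10 d replicate 1 (0.0948).

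miR-351-5p in the vector line had 4061 and 4374 CPM at 6 h and 3091, 3491 and 3517 CPM at 10 d, with no overlap, a log2 fold change of -0.33 (SE 0.118) and an edgeR adjusted p of 0.0690. It was called in 4 of 36 alternatives, DESeq2 among them (0.0335). miR-450a-5p had 324 and 405 CPM at 6 h and 442, 401 and 407 CPM at 10 d, which overlapped (0.19, SE 0.119, adjusted p 0.335), and was called with upper-quartile factors (0.0342). The interaction test gave no member a call, so the sizes of the 6 h to 10 d changes are not shown to differ between the lines.

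**Figure D3:**
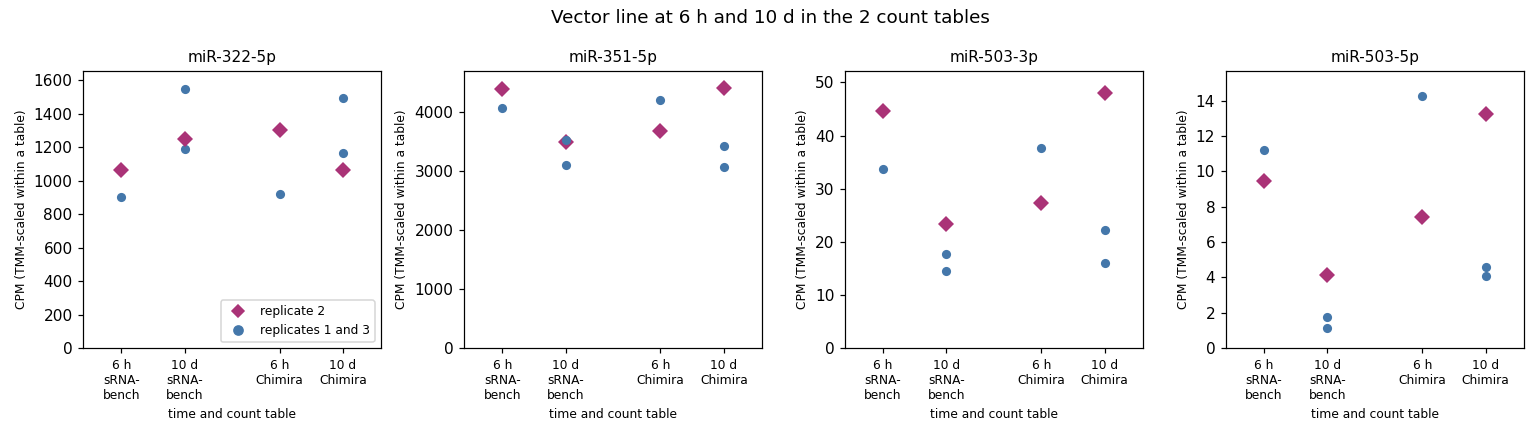
TMM-scaled CPM (y axes from 0) of 4 members in the vector line at 6 h and 10 d, as named in the sRNAbench table and in the Chimira table, with replicate 2 as diamonds and the other replicates as circles. For miR-503-3p the diamond stands at 44.6 CPM at 6 h and 23.4 CPM at 10 d in the sRNAbench table, and the order is turned round in the Chimira table.

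The lowest levels of several members were at 3 d. From 24 h to 3 d in the α1ACT line, all tested members but miR-542-5p had every 3 d library below every 24 h library, 7 of 8 against a background of 24.2%. In the vector line miR-322-3p, miR-322-5p, miR-351-5p and miR-450a-5p were lower in this way, 4 of 8 against a background of 17.5%, and miR-542-5p was higher (background 16%). Neither time of this step involves the libraries with conflicting names.

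For miR-351-5p the vector libraries had 4895, 5525 and 4364 CPM at 24 h and 2695, 2795 and 2825 CPM at 3 d. The α1ACT libraries had 4898, 5328 and 4574 CPM at 24 h and 2618, 2616 and 3058 CPM at 3 d. Every library at 3 d was below every library at 24 h, in both lines. For miR-450a-5p the 24 h values above stood against 269, 256 and 295 CPM in the vector line and 272, 279 and 284 CPM in the α1ACT line at 3 d. miR-322-5p had 1225, 1206 and 1138 CPM in the vector line and 1303, 1551 and 1259 CPM in the α1ACT line at 24 h, and at 3 d it had 917, 889.7 and 1127 CPM and 860.5, 953 and 1024 CPM. Vector replicate 3 at 3 d came within a short distance of the lowest 24 h library. The summed neuroendocrine markers were higher at the later time, and miR-375-3p made up most of the sum. They ran from 166886 to 185789 CPM at 24 h and from 204949 to 221861 CPM at 3 d in the vector line, and from 147029 to 164027 CPM and from 194617 to 210192 CPM in the α1ACT line. Group means of miR-375-3p went from 135710 to 180790 CPM in the vector line and from 121923 to 169177 CPM in the α1ACT line, while those of miR-183-5p went from 4106 to 3385 and from 3558 to 3203 CPM and those of miR-96-5p from 240 to 98.3 and from 212 to 92.1 CPM. The mesenchymal and muscle sum in the α1ACT line was 544 to 786 CPM at 24 h and 490 to 528 CPM at 3 d, and in the vector line its ranges overlapped (873 to 1322 and 688 to 1094 CPM). The part of these markers in the result was not tested.

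From 3 d to 10 d, miR-322-3p, miR-322-5p and miR-450a-5p had every later library above every earlier one in both lines. This made 3 of 8 members higher in the α1ACT line, against a background of 26.4%. The vector line added miR-351-5p, 4 of 8 against 22.3%. Between 6 h and 24 h the α1ACT libraries of miR-322-5p, miR-450a-5p and miR-542-3p were higher (3 of 8, background 10.4%). In the other line miR-322-5p was higher (background 14.9%) and miR-503-3p and miR-503-5p were lower (background 17.1%), as named. With the columns exchanged, the vector line from 6 h to 24 h had only miR-351-5p higher (1 of 8, 14.9% of all tested entries) and none lower, and from 3 d to 10 d it had miR-322-3p, miR-351-5p and miR-450a-5p higher (3 of 8, 14.9%). Without both libraries the same 4 members were higher from 3 d to 10 d (29.4% of all tested entries), and from 6 h, with 1 library left, to 24 h 4 were higher (28.6%) and the 2 strands of miR-503 lower (26.8%). No test was made of these single steps.

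The strands of miR-503 were the scarcest, and counting error and differences between the 2 count tables limit what can be read from miR-503-5p. It had between 0 and 26 counts in a library. Vector libraries had 4.46, 7.06 and 8.56 CPM at 24 h and 0, 1.69 and 5.89 CPM at 3 d. The 0 was found in the shallowest library, where a true count of 0 allows up to 6.73 CPM. The sRNAbench counts hold no value equal to 1, so a printed 0 may stand for 1 and the limit may be higher. The level there is therefore not shown to be lower than at 24 h. Chimira assigned 5 counts (10.3 CPM) to miR-503-5p in that library. In vector 10 d replicates 1 and 3 it assigned 19 and 15 counts, against 7 and 4 by sRNAbench. Over all libraries the totals were 471 and 319 counts. The α1ACT libraries had 8.01, 5.19 and 5.47 CPM at 6 h, then 7.67, 8.51 and 8.51 CPM at 24 h. They had 5.34, 6.07 and 4.05 CPM at 3 d, then 4.02, 1.30 and 7.71 CPM at 10 d, where the spread was widest. miR-503-3p, with 12 to 124 counts in a library, had its highest group means at 6 h in both lines, 39.1 ± 7.72 CPM (SD, n = 2) and 42.2 ± 15.3 CPM (SD, n = 3). The mean of the vector line was 28.5 CPM with the columns exchanged, and its remaining library without the pair had 33.7 CPM. At 24 h these were 22.4 ± 2.96 and 24.6 ± 0.950 CPM, and at 3 d 18.8 ± 7.11 and 14.8 ± 5.91 CPM (SD, n = 3 each).

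The make-up of the cluster differed between times. In the α1ACT line the cluster's counts came from miR-351-5p to 71.1% ± 1.39, 67.5% ± 0.559, 62.8% ± 1.36 and 57.0% ± 2.59 from the earliest to the latest time (SD, n = 3 each). miR-322-5p took 15.7% ± 1.06, 18.7% ± 0.724, 21.5% ± 0.885 and 25.5% ± 2.27. The counts of miR-351-5p per count of miR-322-5p went from 4.55 ± 0.383 at 6 h to 2.25 ± 0.309 at 10 d. In this line no library at 10 d reached the lowest ratio at 6 h, since the ranges were 2.01 to 2.60 and 4.12 to 4.84.

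The vector line showed a like order, with 69.6% ± 1.57 (SD, n = 2), 70.6% ± 1.35, 63.3% ± 2.31 and 60.2% ± 1.74 (SD, n = 3) for miR-351-5p. Its ratio of miR-351-5p to miR-322-5p was 4.30 ± 0.275, 4.14 ± 0.392, 2.86 ± 0.325 and 2.55 ± 0.261 in the same order of times. The 2 libraries with conflicting names had ratios of 4.11 (named 6 h) and 2.79 (named 10 d), against 4.50 for the other 6 h library and 2.60 and 2.27 for the other 10 d libraries, so with the names exchanged the ranges of 6 h and 10 d would overlap. These ratios are formed within a library, so the scaling between libraries does not enter them. They are given as descriptions, with no test. Within miR-322, the 3p share went from 24.5% ± 2.33 at 6 h to 18.7% ± 1.86 at 10 d in the α1ACT line, where the ranges (22.0% to 26.6% and 16.9% to 20.6%) did not overlap. The vector line had 25.2% and 24.4% at 6 h and 20.3%, 19.2% and 17.9% at 10 d as named. The 24.4% and the 19.2% belong to the libraries with conflicting names, so with the names exchanged these ranges would overlap.

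**Figure D4:**
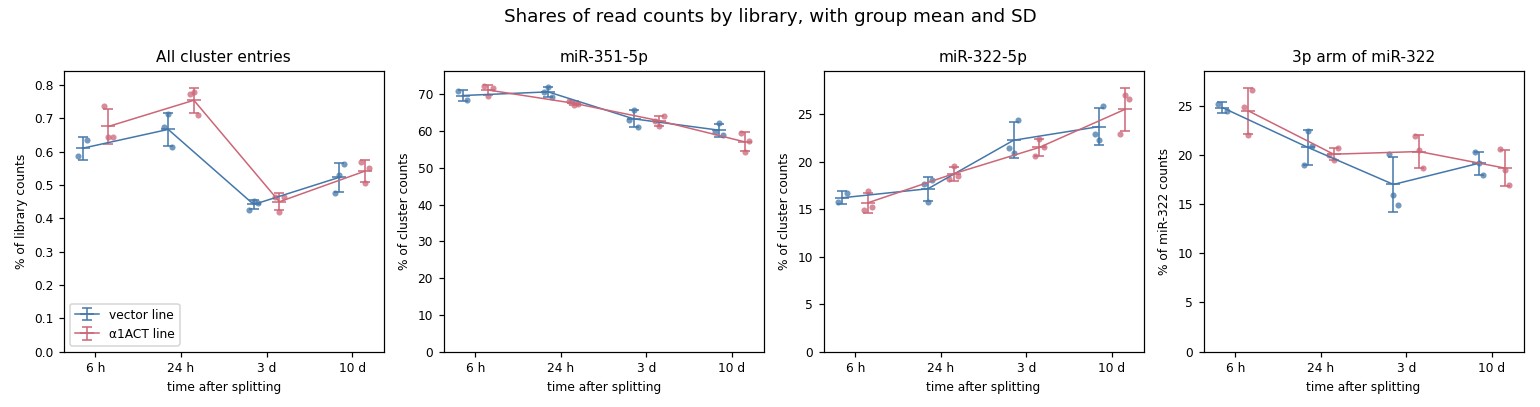
Share of library counts taken by all cluster entries, shares of cluster counts taken by miR-351-5p and miR-322-5p, and 3p share of miR-322 (y axes in percent, from 0) against time after splitting, with points for libraries and bars for group mean and SD. The share of miR-351-5p is 71.1% at 6 h and 57.0% at 10 d in the α1ACT line, while that of miR-322-5p is 15.7% and 25.5%.

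The level given for miR-450a-5p depends on how reads were divided between it and miR-450b-5p. The printed strands, of 22 and 21 bases, are the same at 20 of 21 compared positions and differ by G21A, counted from the 5′ end with the base of miR-450a-5p first. The sRNAbench table assigned 22946 counts to miR-450a-5p and 4556 to miR-450b-5p, and Chimira 19778 and 8476. The sums, 27502 and 28254, were close. miR-450b-5p took between 9.09% and 20.7% of the sum of a library in the first table and between 18.4% and 42.0% in the second.

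The division touches the change of miR-450a-5p with time. Its group mean in the α1ACT line from 6 h to 10 d went from 362 ± 28.4 to 450 ± 38.2 CPM (SD, n = 3) in the sRNAbench table and from 272 ± 23.1 to 410 ± 27.9 CPM in the Chimira table, where the log2 fold change was 0.59 (edgeR adjusted p 0.00181). miR-450b-5p went from 85.3 ± 15.4 to 84.8 ± 7.22 CPM in the first and from 182 ± 26.1 to 141 ± 11.7 CPM in the second. For the sum of the entries in the sRNAbench table the log2 fold change was 0.26 and not called (edgeR adjusted p 0.0783). Both tables had the lowest sums at 3 d, 310 ± 24.5 and 328 ± 13.4 CPM in the vector and α1ACT lines by sRNAbench and 318 ± 12.9 and 330 ± 14.8 CPM by Chimira.

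Entries outside the cluster that carry a member's seed numbered 7, and all were tested. For the line comparison none was called (background 12.6%). Between 6 h and 10 d none was called in the vector line (background 11.9%), as named, with the columns exchanged or without both libraries, and 3 were called in the α1ACT line (background 27.1%). miR-125a-5p and miR-125b-5p, which have the seed of miR-351-5p, fell by 1.69 (SE 0.209) and 1.64 (SE 0.203) on the log2 scale there, both with an edgeR adjusted p of 2.38e-06. Their group means went from 13205 ± 5118 to 4104 ± 255 CPM and from 5663 ± 2036 to 1817 ± 145 CPM (SD, n = 3). The spread at 6 h was wide, from 7364 to 16906 CPM and from 3316 to 6947 CPM, and both calls were kept in all 36 alternatives. The 3 entries with the CCCUGAG seed were thus all lower at 10 d in that line.

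Of the entries with the seed of miR-322-5p, miR-497-5p rose in the α1ACT line, from 1505 ± 57.3 to 2234 ± 187 CPM (log2 fold change 0.57, SE 0.112, edgeR adjusted p 0.000327, called in all 36 alternatives). miR-195-5p (0.23, SE 0.116), miR-16-5p (0.14, SE 0.116) and miR-15b-5p (-0.37, SE 0.226) were not called. By level, miR-16-5p was the most abundant entry with this seed, at a mean of 24817 CPM against 1156 CPM for miR-322-5p.

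A list of miRNAs linked to G1 and growth held 29 entries, of which 20 were tested. Between the lines 4 were called (background 12.6%): miR-34a-5p (0.33) and miR-34c-5p (0.47), members of a family induced by p53, were higher in the α1ACT line, and miR-15b-3p (-0.42) and miR-195-3p (-0.22) were lower. Of 35 alternatives these were called in 32, 35, 14 and 27, in the order named. With the columns exchanged, miR-34a-5p and miR-15b-3p were lost (edgeR adjusted p 0.0625 and 0.0613), and without both libraries miR-34a-5p, miR-15b-3p and miR-195-3p were (0.108, 0.274 and 0.0751). The list's median log2 fold change was -0.06 against 0.001 over all tested entries. The α1ACT line from 6 h to 10 d had 4 called (background 27.1%), with miR-497-5p and miR-93-5p (0.36) higher and miR-106b-3p (-0.31) and miR-93-3p (-0.87) lower. The last 3 were called in 31, 18 and 32 of 36 alternatives. The list's median was 0.13 against -0.008 over all tested entries. The vector line had 1 call (background 11.9%), miR-93-5p (0.45), which was not called in the Chimira table (edgeR adjusted p 0.996), with the columns exchanged (0.993) or without both libraries (0.583), and the list's median was 0.06 against 0.02.

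Likeness of pattern was measured as the root mean square difference between the 8 group means of log2(CPM + 1), after each entry's own mean was subtracted, over 268 other tested entries. All entries come from the same 23 libraries and share their scaling, and the 2 libraries with conflicting names were used as named. Nearest to miR-351-5p were miR-19b-3p (0.17), miR-879-5p (0.20) and miR-191a-3p (0.21), and of the members miR-322-3p came first, at rank 8. miR-322-5p was nearest to miR-101a-3p (0.087), miR-27a-3p (0.091) and miR-29a-3p (0.094). For miR-450a-5p they were miR-190a-5p (0.063), miR-29b-3p (0.084) and miR-3068-3p (0.088).

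Some members stood close to each other on this measure, such as miR-322-5p and miR-450a-5p (0.12), and others far apart, such as miR-322-5p and miR-503-5p (0.74). With 0 to 26 counts of miR-503-5p in a library, counting error and the added 1 CPM enter its distances. How much of them is due to its scarcity was not tested. The median over all tested entries was 0.33 from miR-322-5p and 0.36 from miR-450a-5p. From miR-322-5p, miR-450a-5p was at rank 11, miR-542-3p at 41, miR-322-3p at 69, miR-542-5p at 118, miR-351-5p at 153, miR-503-3p at 237 and miR-503-5p at 258. From miR-450a-5p, miR-322-5p was at rank 7 and miR-322-3p at 15, while the neighbour miR-450b-5p was at 58 and miR-351-5p at 110.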

How the data were processed

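A miRNA-enriched RNA fraction went into Illumina TruSeq small RNA libraries, per the labels' protocols. The deposited tables hold unnormalized read counts per miRNA entry, made with sRNAbench (413 named entries, used here) and Chimira (627), per the names the authors gave them. edgeR is named per the submitters' processing notes, while no source used here states versions, the miRBase release or the build. It was assumed that a column headed control is the vector line and a column headed WT the α1ACT line. A further 12 columns of each table belong to none of the 23 samples and were not used. An entry without a name held 0 counts (0% of the total).

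The members and lists were chosen with earlier results of these data known, so p-values given here are outputs of the fit and not independent evidence. Counts were fitted with edgeR 4.0.16 in R 4.3.3: filterByExpr, TMM scaling, 8 group means over all 23 libraries, robust quasi-likelihood. The common biological coefficient of variation was 16.1%. Standard errors come from the fold change and its F value. The sRNAbench table has no value equal to 1, and the Chimira table has 1160, so counts near 0 are not comparable between them. Members were taken by name. Outside them the rule named entries sharing a member's seed, the 3 entries of nearest pattern and called entries of the growth list. The steps were tested on simulated data.

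Totals from 448557 to 5070120 counts set the precision. The reads have no molecular identifiers, so the limit that a count of 0 allows (3 counts) covers counting error only. It also takes a printed 0 as a true 0. Replicates were compared for duplicates, and none was found (chi-square per degree of freedom 22.8 to 229). Library names were compared between the tables over 99 entries. Alternatives were the Chimira table, RLE, upper-quartile and total scaling, no filter, DESeq2 1.42.0, limma-voom (limma 3.58.1), a replicate block, the exchanged columns, leaving out both of those libraries or each library in turn, and fits of 2 groups alone. The exchange within the Chimira table and the sum of miR-450a-5p and miR-450b-5p were chosen after seeing the data. That sum kept the TMM factors of the reported fit.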

Additional observations from a re-analysis of the deposited data

How the results depend on the processing

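The count of members called kept within 1.5 times its reported value in all alternatives for the lines at 6 h, 3 d and 10 d, time within the α1ACT line and the interaction. Between the lines over 4 times it went from 0 to 3 with upper-quartile factors or library totals, to 1 in the Chimira table with the columns exchanged, and to between 0 and 1 leaving out single libraries. At 24 h it went from 0 to 1, miR-450a-5p, with upper-quartile factors or library totals. From 6 h to 10 d in the vector line it went from 3 to 0 in the Chimira table and with the pair of columns exchanged, to 1 without both libraries, and to between 0 and 3 leaving out single libraries. For time within the vector line it went from 6 to 2 in the Chimira table and to 3 with the columns exchanged. From 6 h to 10 d in the α1ACT line it lay between 2 and 5 leaving out single libraries, with 2 without α1ACT 6 h replicate 3. Where a construction such as the exchange does not show it, the cause was not tested.

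The sign turned for these values, none of them a called change of a member. Between the lines, miR-351-5p was -0.0078 with RLE factors, -0.0078 with DESeq2 and -0.00471 without a low-count filter, and lay between -0.018 and 0.045 leaving out single libraries. miR-503-3p was 0.028 in the Chimira table, 0.021 with its columns exchanged, 0.091 with upper-quartile factors, 0.067 with library totals, 0.00035 with DESeq2, 0.019 with limma-voom, 0.093 without both libraries, and between -0.087 and 0.079 leaving out single libraries, where miR-542-3p lay between -0.054 and 0.079. From 6 h to 10 d in the vector line, miR-322-3p was 0.053 in the Chimira table, 0.119 with upper-quartile factors and 0.125 with the columns exchanged, and miR-93-5p was -0.037 in the Chimira table. Leaving out single libraries there, miR-450a-5p lay between -0.0072 and 0.294 and miR-542-3p between -0.045 and 0.463.

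Upper-quartile factors and library totals moved the median of all entries from 6 h to 10 d in the vector line by 0.16 and -0.11, and the calls from 14 higher and 18 lower to 43 and 17 or 5 and 27. Between the lines the same scalings turned 18 higher and 16 lower into 43 and 5 or 36 and 5. In the α1ACT line the calls from 6 h to 10 d went from 30 higher and 43 lower to 16 and 48 with upper-quartile factors. Counts of all entries called lay between 16 and 48 between the lines (34 reported), 0 and 60 from 6 h to 10 d in the vector line (32), 46 and 120 for time within it (99), 0 and 7 at 6 h (0), 0 and 3 at 24 h (1), 0 and 6 at 3 d (1), 0 and 11 at 10 d (4) and 0 and 4 for the interaction (0).

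With the replicate block no member was called between the lines and the counts of members called stayed within 1.5 times for each comparison, 0 for the line mean and 4 from 6 h to 10 d in the α1ACT line among them. Whether the replicate numbers pair the libraries cannot be told from these values. A correlation of deviations over 0.1 was found in 35 of 77 pairs of libraries with the same number, and no such share is given for other pairs. The median correlation was 0.058 for the same number and -0.019 for other numbers. Of 11 vector libraries, 3 were closest to the α1ACT library of their own number. Of the nearest entries to miR-351-5p, 1 of 3 stayed with a pseudocount of 5.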
